A study of Mus musculus with 75 samples.

Results

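The Hox genes were followed along the mouse gut in RNA from cells labelled as enteric glia, the support cells of the gut's own nervous system. The members were chosen by symbol alone, as every gene of the HoxA, HoxB, HoxC and HoxD clusters and every antisense RNA named after one of them. The rule found 42 members, 39 protein-coding and 3 antisense (Hoxa11os, Hoxb3os and Hoxb5os), among 21051 genes in the count table of the untreated and 2 h libraries and 21076 genes in that of the 24 h libraries. HoxA and HoxB contributed 12 members each, and HoxC and HoxD 9 each.

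The study sequenced 75 Smart-seq2 libraries in 16 groups, and in each experiment colon can be set against small intestine. All mice, controls included, carried the same transgene that makes green fluorescent protein (eGFP) in glia, and both sexes were used. The labels give no age beyond adult animals, and the sources used here do not say how cells were separated from the tissue. Untreated reporter mice gave libraries of the myenteric plexus, which lies between the muscle layers (5 of colon, 6 of small intestine), and of the submucosal plexus, which lies under the mucosa (5 of colon, 6 of small intestine). At 2 h after 1 intraperitoneal injection of PBS, or of LPS (bacterial lipopolysaccharide, 2 mg/kg), reporter mice gave 4 myenteric libraries per treatment and region. At 24 h the myenteric libraries came from reporter mice that were Gpr37WT, here called wild type, or Gpr37-/-, here called knockout, which lack the receptor gene Gpr37. With PBS there were 4 wild-type libraries of colon and 6 of small intestine, and 5 and 4 of the knockout. With LPS there were 5 wild-type libraries of colon and 4 of small intestine, and 4 and 5 of the knockout.

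Hox genes encode homeodomain transcription factors that give cells along the head-to-tail axis their regional identity. The genes of a cluster are numbered by paralogue group, and their order along the chromosome follows the order in which they are used along the body, with low-numbered groups active towards the head and high-numbered groups towards the tail. In the developing gut, posterior members such as Hoxa13 and Hoxd13 are known from the hindgut, which forms the colon, and the middle members from the midgut, which forms most of the small intestine. Enteric glia and neurons descend from neural crest cells that enter the gut, mostly from the vagal level of the neural tube.

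In GRCm38 the HoxA cluster lies on chromosome 6, HoxB on 11, HoxC on 15 and HoxD on 2. Promoter sequences of 250 bases upstream of a RefSeq start site (GRCm38.p6) are shown for 3 posterior members that were higher in colon, 1 of HoxA and a neighbouring pair of HoxD, and for Hoxa5, a middle member with lower mean levels in colon. None of the 4 windows overlaps an annotated exon. Capitals mark a match to TGATTNAT on the reverse strand, a motif of Hox proteins paired with their Pbx partners.
Hoxa10, chr6:52240855-52241104, minus strand: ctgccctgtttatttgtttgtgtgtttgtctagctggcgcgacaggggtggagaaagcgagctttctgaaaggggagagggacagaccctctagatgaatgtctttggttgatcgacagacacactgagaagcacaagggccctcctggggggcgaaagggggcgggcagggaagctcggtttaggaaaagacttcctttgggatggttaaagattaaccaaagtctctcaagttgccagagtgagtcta
Hoxd10, chr2:74691641-74691890, plus strand: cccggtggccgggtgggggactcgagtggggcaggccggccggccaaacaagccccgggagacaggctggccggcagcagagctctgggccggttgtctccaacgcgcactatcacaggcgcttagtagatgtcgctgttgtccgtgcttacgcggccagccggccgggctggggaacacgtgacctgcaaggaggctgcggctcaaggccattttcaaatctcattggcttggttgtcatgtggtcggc
Hoxd11, chr2:74682073-74682322, plus strand: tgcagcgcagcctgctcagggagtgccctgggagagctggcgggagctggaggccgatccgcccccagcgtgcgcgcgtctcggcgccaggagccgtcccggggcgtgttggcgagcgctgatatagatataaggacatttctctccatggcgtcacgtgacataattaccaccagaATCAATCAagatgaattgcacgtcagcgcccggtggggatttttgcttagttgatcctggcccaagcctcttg
Hoxa5, chr6:52204588-52204837, minus strand: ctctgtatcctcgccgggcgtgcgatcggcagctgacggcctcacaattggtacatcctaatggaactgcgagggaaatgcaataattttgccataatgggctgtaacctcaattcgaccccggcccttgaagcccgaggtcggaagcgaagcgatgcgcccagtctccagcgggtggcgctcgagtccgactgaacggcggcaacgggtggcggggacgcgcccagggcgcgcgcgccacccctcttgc
RefSeq gave 26 such windows for 24 members. Searched on both strands, TGATTNAT occurred in 2 of the 26 windows (7.69%; Hoxa2 and Hoxd11), against 2.83% of 32841 promoter windows of the same length. The Cdx core motif TTTATNG occurred in 2 windows (7.69%; Hoxb8 and Hoxd4), against 9.81% of all. These matches describe the letters of the windows and name no binding site.

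Values are CPM, the counts of a gene relative to the library's total, scaled with TMM between libraries. Library totals ran from 1990744 to 33283346 counts, so that the CPM of 3 counts, used here as the floor of detection, ran from 0.0933 to 1.46. Gpr37 had 18 counts in all in the 18 knockout libraries, and 1229 in the 19 libraries labelled wild type. It had 3 or fewer counts in 4 of the latter, namely both libraries of mouse 3 and the LPS colon libraries of mice 5 and 8. The libraries were not pure glia: summed CPM of 8 glial markers ran from 6301 to 13998 in the untreated myenteric libraries and from 543 to 5641 in the submucosal ones. In the untreated myenteric plexus the 9 neuron markers summed to 153-372 CPM in colon and 758-2632 in small intestine, while smooth muscle (7302-23492 against 1245-8845) and fibroblast markers (3760-17795 against 1909-4189) ran higher in colon. In the injected mice neuron markers summed to 155-1728 CPM in colon and 1275-4085 in small intestine at 2 h, and to 178.5-2130 and 335-5676 at 24 h. Fibroblast markers summed to 4839-12026 and 1118-5439 CPM at 2 h, and to 803-25904 and 721-13711 at 24 h. Smooth muscle markers summed to 19714-73465 CPM in colon and 1309-18414 in small intestine at 2 h, and to 608-7206 and 257-6723 at 24 h. The 5 mesothelium markers summed to 0-104 CPM in colon and 63.0-1770 in small intestine at 2 h, and to 1.85-142.9 and 24.2-3010 at 24 h. Over the 8 region comparisons edgeR called 9 of 72 tests of neuron markers, 6 of 64 of fibroblast, 3 of 64 of smooth muscle and none of 40 of mesothelium markers, and DESeq2 called 25, 14, 11 and 10. At an unadjusted p under 0.05 in edgeR stood 46, 29, 25 and 27. Whether a level differs through the number of cells of a type or the RNA per cell cannot be told apart in such bulk samples, and the part of these other cells in the results below was not tested beyond the fits named there. The submitters' notes do not say whether strand was used in counting. Exons of Hoxa11 and Hoxa11os share 800 bases (35.0% and 26.0% of their exon lengths), as do parts of Hoxb3 and Hoxb3os, of Hoxb2 and Hoxb3os (953 bases) and of Hoxb5 and Hoxb5os, so the levels of these genes are uncertain.

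Of the 42 members, 28 passed the filter on low counts in all 3 experiments, 8 in some, and 6 in none (Hoxb1, Hoxc11, Hoxc12, Hoxc13, Hoxd1 and Hoxd12, which reached at most 42 counts in any library). Over the 8 comparisons of colon with small intestine, 14 members were called at least once by edgeR's quasi-likelihood test at a Benjamini-Hochberg adjusted p under 0.05 over all genes, 10 as higher and 4 as lower in colon. The other 22 members that were tested were not called in any. The called members gave 43 calls, and over all genes 1.14% of the tests of these 8 comparisons gave a call. The share of all genes called at least once was not counted. The higher ones were Hoxa7, Hoxa9, Hoxa10, Hoxa11, Hoxa11os, Hoxa13, Hoxb13, Hoxd10, Hoxd11 and Hoxd13, and the lower ones were Hoxb5, Hoxc4, Hoxc5 and Hoxc8. Apart from Hoxa7, the members called higher belong to paralogue groups 9 to 13, and those called lower to groups 4 to 8.

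**Figure D1:**
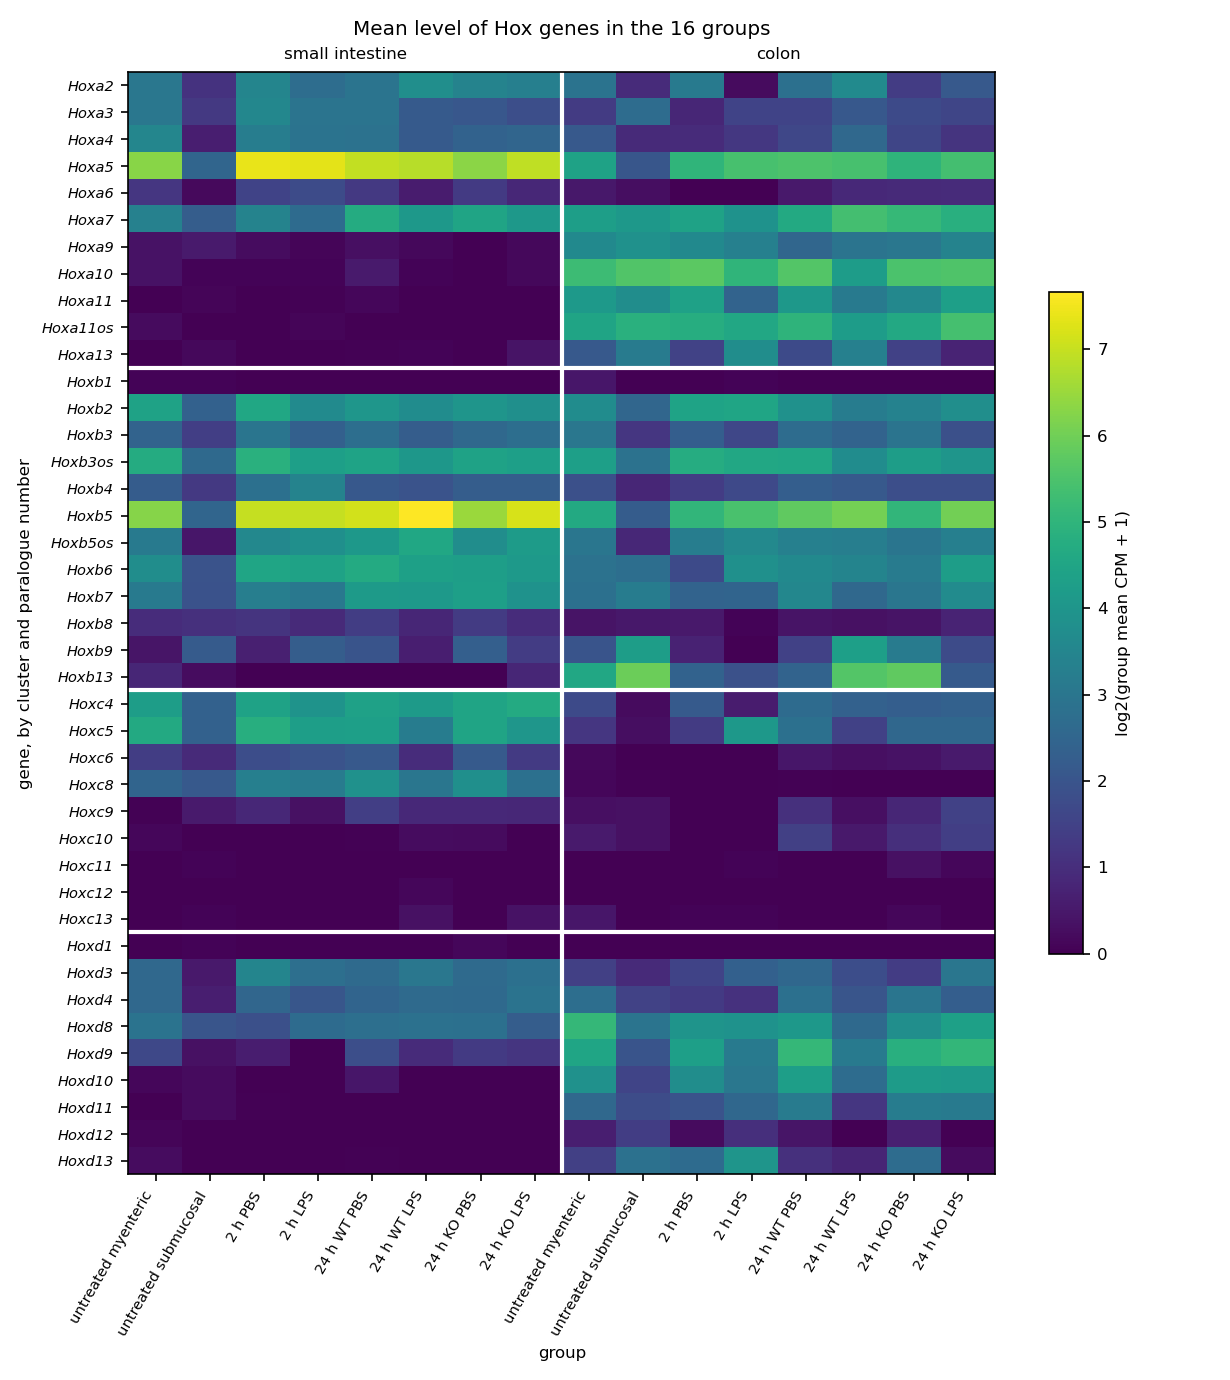
Mean level of the members (rows, in paralogue order within each cluster) in the 16 groups (columns), as log2(CPM + 1) on the colour scale, with small intestine groups on the left and colon groups on the right. The posterior HoxA and HoxD rows are lighter (higher) on the colon side and dark, near 0, on the small intestine side, while Hoxc8 shows the opposite layout.

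Hoxa10 (chromosome 6, 52231197-52240854, minus strand), a posterior member of HoxA, separated the 2 regions widely. In the untreated myenteric plexus the colon libraries held 10.9, 22.7, 92.4, 25.0 and 34.3 CPM, and the small intestine libraries held 0 except replicate 2 with 1.72. In the submucosal plexus the colon libraries held 51.1, 40.4, 50.4, 48.4 and 42.1 CPM, and of the 6 small intestine libraries 1 held 0.360 and the rest 0. The groups did not overlap in either plexus, and the log2 fold changes were 7.15 ± 0.88 (SE, adjusted p = 0.000135) and 9.71 ± 1.06 (adjusted p = 1.6e-05) by edgeR's quasi-likelihood test. The submucosal pooled ratio of counts, 1303 against 1, was 1466 with a 95% exact interval of 263 to 57963, which covers counting error only.

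Hoxa10 kept that layout in the injected mice. At 2 h the colon libraries held 61.6, 62.2, 25.3 and 60.7 CPM after PBS and 56.9, 1.80, 42.7 and 23.6 CPM after LPS, and the highest small intestine library held 0.240. The log2 fold changes in edgeR were 8.85 ± 1.26 (adjusted p = 0.0121) and 8.91 ± 1.27 (adjusted p = 0.0152). The first call was lost without PBS small intestine replicate 2 (adjusted p = 0.0516), and the second without LPS small intestine replicate 3 (0.0553) or 4 (0.0661). At 24 h the wild-type PBS colon libraries held 55.4, 52.0, 56.6 and 25.4 CPM and the knockout ones 79.7, 49.0, 4.01, 69.1 and 16.2, with 5 of 6 wild-type small intestine libraries and all 4 knockout ones at 0. The log2 fold change was 6.52 ± 1.33 in the wild type (edgeR adjusted p = 0.0307), and the knockout colon was at least 896-fold higher (adjusted p = 0.0205), the bound being 3 counts over the group. After LPS the libraries labelled wild type held 25.1, 15.2, 16.5, 0 and 31.2 CPM in colon, which overlapped small intestine through the 0 of mouse 5, and Hoxa10 was not called there (8.45 ± 1.96, adjusted p = 0.0532). The LPS knockout colon libraries held 91.1, 39.5, 0.536 and 52.9 CPM and were called higher (9.21 ± 1.79, adjusted p = 0.0269), although mouse 2 lay below 1 small intestine library at 0.642. The 24 h calls were kept in 2 of 10, 6 of 9 and 1 of 9 fits that left out 1 library, for wild-type PBS, knockout PBS and knockout LPS in that order. In knockout PBS the call was lost without small intestine replicate 1, 2 or 3 (adjusted p = 0.0889 to 0.103). All 3 were lost when the animal was fitted as a block (adjusted p = 0.131, 0.0720 and 0.147), with fitted log2 fold changes of 7.88 ± 1.37, 12.09 ± 1.66 and 12.19 ± 1.94.

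Hoxa11 (52242106-52245810, minus strand), the neighbour of Hoxa10, was found in 34 of 36 colon libraries and had 8 counts in all in the 39 small intestine libraries. In untreated colon it held 5.44, 12.7, 34.0, 15.1 and 13.5 CPM in the myenteric plexus, where all small intestine libraries were at 0, and 7.79-16.5 CPM in the submucosal plexus, where 4 of 6 were at 0. Colon was at least 173-fold higher in the myenteric plexus (edgeR adjusted p = 5.74e-05), and the submucosal log2 fold change was 7.13 ± 0.82 (adjusted p = 0.000109). In the injected mice the call was made after 2 h PBS (at least 133-fold, adjusted p = 0.0308) and in the 24 h groups except LPS wild type (adjusted p = 0.0310, 0.0497 and 0.0269 for wild-type PBS, knockout PBS and knockout LPS). It was not made after 2 h LPS (1.20-6.57 CPM in colon, adjusted p = 0.131) or in the LPS libraries labelled wild type (adjusted p = 0.0532). These 4 calls in injected mice were kept in 1 or 2 of their 8 to 10 fits that left out 1 library. The 24 h ones were lost with the animal as a block (adjusted p = 0.158, 0.148 and 0.228), with fitted log2 fold changes of 8.78, 10.05 and 10.69.

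Hoxa11os (52244393-52249799, plus strand) is an antisense RNA that starts within Hoxa11 and is transcribed from the other strand. It was called higher in colon in all 8 comparisons. Colon libraries held 8.48, 20.9, 32.9, 8.18 and 35.2 CPM in the untreated myenteric plexus and 37.4, 34.9, 29.4, 22.2 and 16.5 in the submucosal plexus, whereas 34 of all 39 small intestine libraries were at 0 and the highest held 0.980. The myenteric log2 fold change was 7.07 ± 0.91 (edgeR adjusted p = 0.00100), and submucosal colon was at least 299-fold higher (adjusted p = 6.4e-05). At 2 h colon held 10.7-36.9 CPM after PBS (at least 174-fold higher, adjusted p = 0.0121) and 10.7-38.1 after LPS (7.82 ± 1.15, adjusted p = 0.0337). The PBS call was lost without small intestine replicate 2 (adjusted p = 0.0511), and the LPS call was kept in 3 of 8 such fits. The LPS call was also lost with the animal as a block and in fits on only the groups compared.

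At 24 h Hoxa11os held 27.6, 28.9, 44.6 and 22.3 CPM in wild-type PBS colon (9.97 ± 1.29, edgeR adjusted p = 0.000475) and 12.4, 21.9, 35.6, 0.910 and 17.7 CPM in the LPS colon libraries labelled wild type (at least 176-fold higher, adjusted p = 0.00729). Knockout colon held 33.0, 27.2, 2.43, 54.7 and 0 CPM after PBS, where the 0 of mouse 7 overlapped small intestine (9.73 ± 1.49, adjusted p = 0.00570), and 67.0, 55.3, 20.1 and 23.7 after LPS (at least 538-fold higher, adjusted p = 0.00141). All 4 calls were kept whichever single library was left out. In fits on only the groups compared the wild-type PBS call was kept and the other 3 were lost (adjusted p = 0.404, 0.794 and 0.0998). The fitted log2 fold changes of these 3 were 9.74, 9.88 and 11.31, and such fits called 0 of all genes in their comparisons. With the animal as a block 1 of the 4 was kept, in the LPS libraries labelled wild type (adjusted p = 0.0445), and the others had adjusted p = 0.0550, 0.0827 and 0.128 with fitted log2 fold changes of 11.15, 10.39 and 11.63. That LPS call was lost without both libraries of mouse 3 (adjusted p = 0.0507, fitted log2 fold change 10.02).

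Hoxa9 (52223100-52231089, minus strand) was called in the untreated libraries alone. In colon it held 16.3, 20.0, 5.15, 7.53 and 8.41 CPM in the myenteric plexus and 3.20-21.4 in the submucosal plexus, against at most 1.72 and 2.52 CPM in small intestine, with no overlap. The log2 fold changes were 5.38 ± 1.25 (edgeR adjusted p = 0.0219, and 0.0516 without myenteric small intestine replicate 4) and 5.13 ± 1.24 (adjusted p = 0.0166). In the injected mice Hoxa9 ran from 0 to 33.1 CPM within the colon groups and was not called (adjusted p = 0.137 to 0.430). Hoxa13 (52257694-52260880, minus strand), the last gene of the cluster, held 3.41 ± 2.84 CPM (SD, n = 5) in untreated myenteric colon, at least 36.6-fold above small intestine (edgeR adjusted p = 0.00867). In submucosal colon it held 8.07 ± 3.81 CPM (SD, n = 5) against 0.120 ± 0.294 (n = 6), a log2 fold change of 6.33 ± 1.20 (edgeR adjusted p = 0.00537). It was not tested at 2 h and not called at 24 h.

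**Figure D2:**
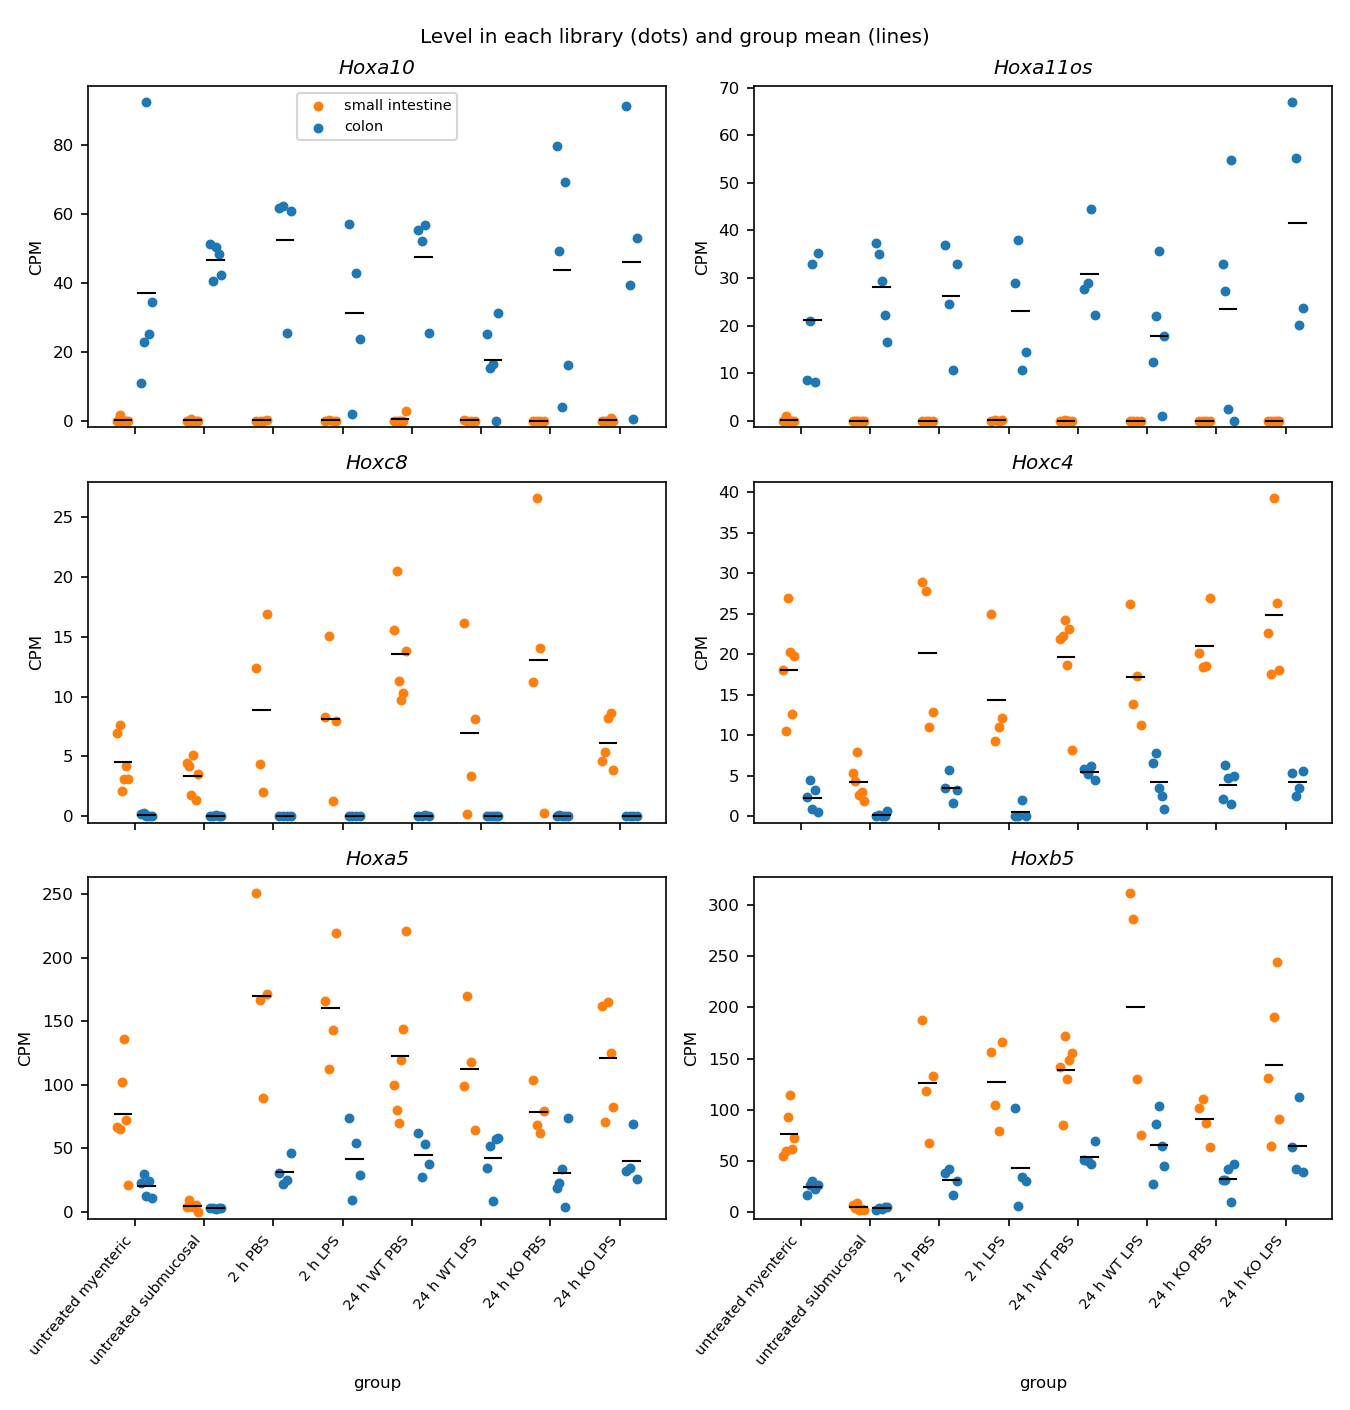
CPM of 6 members in each library by group, with colon and small intestine side by side and a line at each group mean. Hoxa10 and Hoxa11os lie near 0 in small intestine, Hoxc8 lies near 0 in colon, and Hoxc4, Hoxa5 and Hoxb5 are present in both regions with lower means in colon.

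The posterior genes of HoxD followed the same direction with fewer calls. Hoxd10 (chromosome 2, 74691924-74695105, plus strand) held 15.9, 16.0, 12.5, 13.7 and 10.3 CPM in untreated myenteric colon and 0 in small intestine except 0.571 in replicate 6 (log2 fold change 6.67 ± 1.13, edgeR adjusted p = 0.00355). In submucosal colon it held 1.25-3.23 CPM (3.80 ± 1.08, adjusted p = 0.0428), a call kept in 1 of 11 fits that left out 1 library. Its immediate neighbour Hoxd11 held 7.18, 0.604, 8.11, 0.818 and 8.23 CPM in myenteric colon and 0 in all 6 small intestine libraries, at least 53.6-fold higher (edgeR adjusted p = 0.0116). Hoxd13, at the posterior end of the cluster, was called in the submucosal plexus (6.24 ± 4.77 CPM, SD, n = 5, against 0 in small intestine, at least 66.4-fold higher, adjusted p = 0.00698). Hoxd9 had a higher mean in colon in all 8 comparisons and no overlap in 5, with log2 fold changes of 3.03 to 8.22, and was not called in any. In the untreated myenteric plexus it held 21.7 ± 6.64 CPM (SD, n = 5) in colon against 2.13 ± 3.31 (n = 6; edgeR adjusted p = 0.0992).

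The 3 called members of HoxC were higher in small intestine. Hoxc8 (chromosome 15, 102990607-102994111, plus strand) was at 0 in 31 of 36 colon libraries, where it reached at most 0.302 CPM, and had counts in all 39 small intestine libraries. The groups did not overlap in any of the 8 comparisons. In untreated small intestine it held 6.94, 7.60, 2.12, 3.10, 4.23 and 3.14 CPM in the myenteric plexus and 1.32-5.14 CPM in the submucosal plexus. The log2 fold changes, colon against small intestine, were -5.44 ± 0.96 (edgeR adjusted p = 0.00474) and -5.93 ± 1.00 (adjusted p = 0.00111).

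At 2 h Hoxc8 held 12.4, 4.39, 2.01 and 16.9 CPM in small intestine after PBS and 8.32, 15.1, 1.30 and 7.95 after LPS, against 0 in all 8 colon libraries, yet it was not called (edgeR adjusted p = 0.0902 and 0.131). At 24 h it was called lower in colon in all 4 comparisons. Wild-type PBS small intestine held 9.74-20.5 CPM (-7.73 ± 1.32, adjusted p = 0.00794), and the LPS libraries labelled wild type held 16.2, 0.182, 3.39 and 8.14 CPM (colon at least 56.8-fold lower, adjusted p = 0.00797). Knockout small intestine held 0.265-26.7 CPM after PBS (pooled ratio 607, 95% exact interval 109 to 24014, adjusted p = 0.00570) and 3.90-8.67 after LPS (colon at least 61.7-fold lower, adjusted p = 0.0230). The first 3 calls were kept whichever library was left out and the last in 5 of 9 such fits, whereas none was kept with the animal as a block (adjusted p = 0.0550, 0.0899, 0.0907 and 0.217, with fitted log2 fold changes of -8.27, -8.70, -8.66 and -8.40). The LPS wild-type call was also lost without both libraries of mouse 3 (adjusted p = 0.0674, fitted log2 fold change -8.23).

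Hoxc4 (103018934-103036852, plus strand) was at 0 in 6 of 36 colon libraries and in none of the 39 small intestine libraries. In the untreated myenteric plexus colon held 2.39, 4.53, 0.877, 3.27 and 0.525 CPM and small intestine 18.1, 10.5, 27.0, 20.3, 12.7 and 19.8, a log2 fold change of -2.97 ± 0.69 (edgeR adjusted p = 0.0219). In the submucosal plexus both regions were lower, at 0-0.634 CPM in colon and 1.95-7.91 in small intestine (-4.29 ± 0.80, adjusted p = 0.00265). Colon and small intestine did not overlap in any of the 8 comparisons, but in the injected mice Hoxc4 was called in the knockout alone (-2.42 ± 0.47 with PBS, adjusted p = 0.0342, and -2.54 ± 0.50 with LPS, adjusted p = 0.0269), each in 2 of 9 fits that left out 1 library and neither with the animal as a block (-2.71 with adjusted p = 0.152, and -2.18 with 0.594). The wild-type log2 fold changes were -1.86 ± 0.48 with PBS and -2.01 ± 0.47 with LPS, and the difference between genotypes was not tested. Hoxc5, whose annotated span (102967443-103017429, plus strand) holds that of Hoxc8, was called in the untreated myenteric plexus (0-6.13 CPM in colon, 12.1-49.0 in small intestine, -4.16 ± 1.12, edgeR adjusted p = 0.0447), in 1 of 11 fits that left out 1 library. Its mean was lower in colon in all 8 comparisons, as was that of Hoxc6, which was tested in 6 and not called. The log2 fold changes of Hoxc5 ran from -4.16 to -0.22. Its highest colon library, 2 h LPS replicate 2, held 53.1 CPM, above the small intestine maximum of 49.0.

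**Figure D3:**
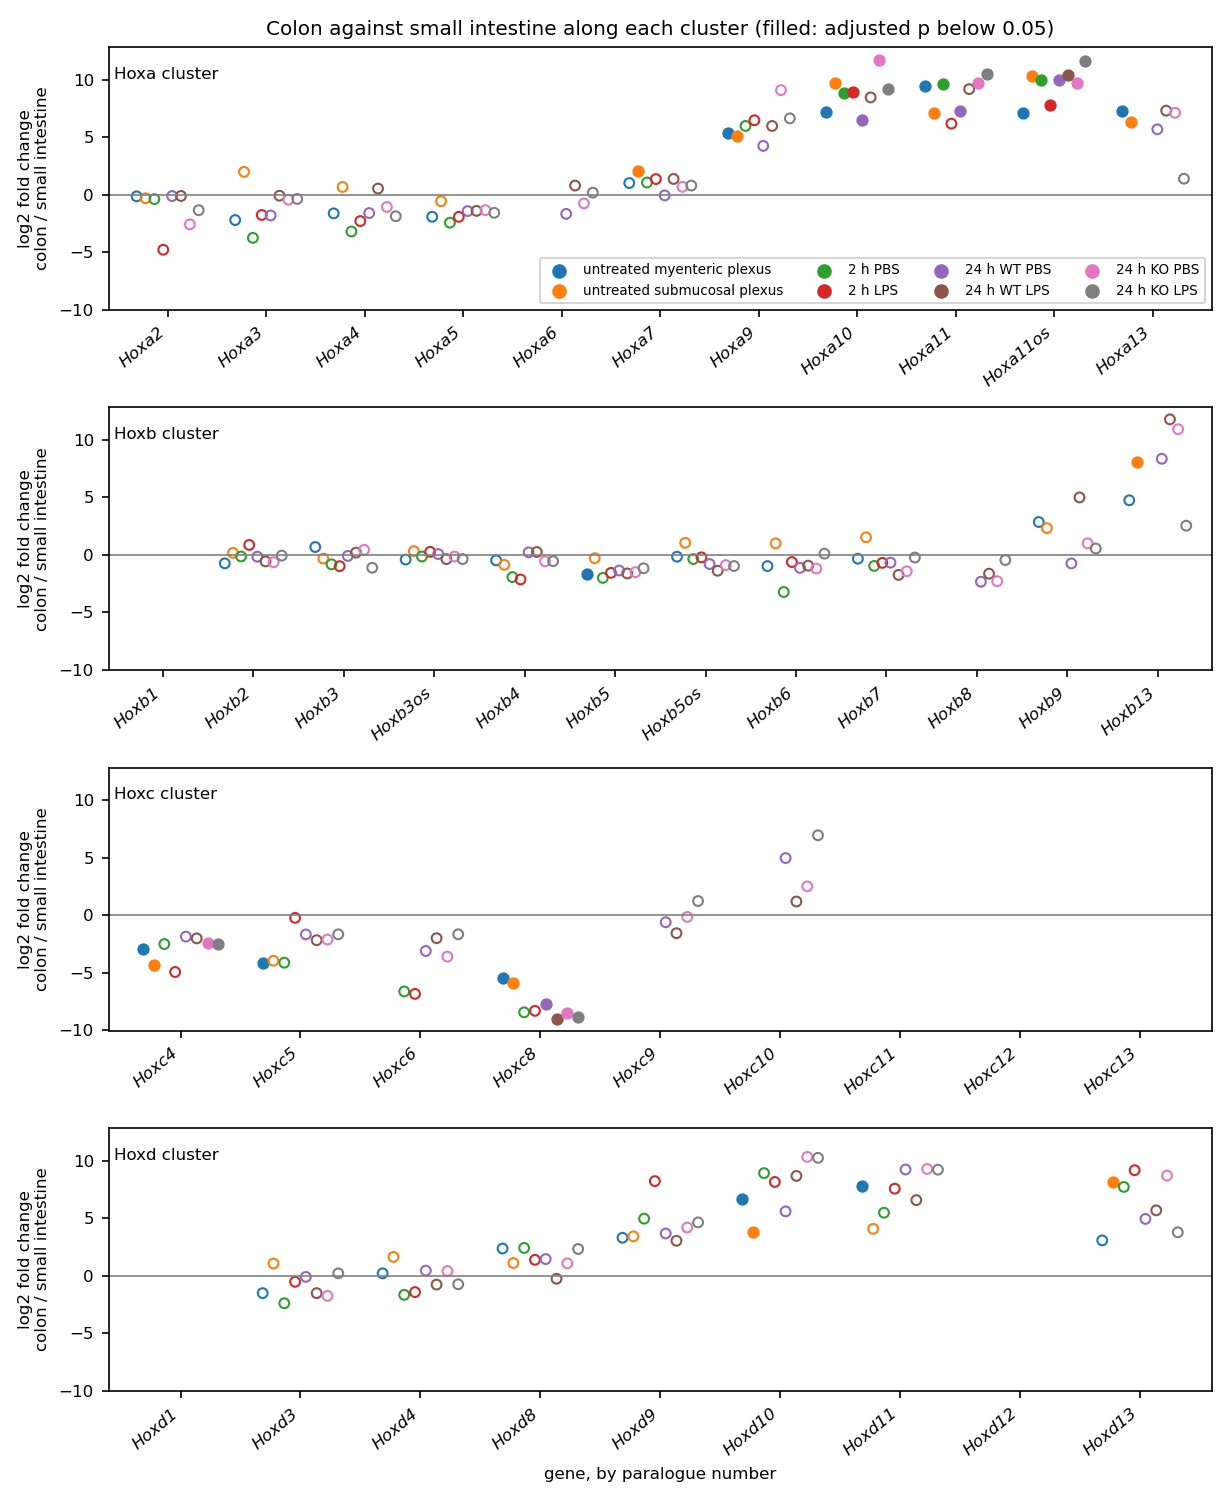
Log2 fold change, colon over small intestine, of tested members by cluster and paralogue number in the 8 comparisons, with filled points for adjusted p under 0.05. Points of groups 9 to 13 in HoxA and HoxD lie high above 0 and points of HoxC up to group 8 lie below it.

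Of the members of groups 5 to 8 in HoxA and HoxB, Hoxa5, Hoxa7, Hoxb5, Hoxb6 and Hoxb7 had 4 or more counts in 32 to 36 of 36 colon and 36 to 39 of 39 small intestine libraries. Hoxa6 and Hoxb8 were scarce, with as many counts in 8 colon libraries each and in 25 and 24 of small intestine. Hoxb5 (chromosome 11, 96303336-96306121, plus strand) held 16.8, 26.0, 30.0, 22.4 and 26.4 CPM in untreated myenteric colon and 54.6, 59.3, 92.5, 115, 61.6 and 72.2 in small intestine, without overlap (-1.64 ± 0.35, edgeR adjusted p = 0.0131). Its mean was lower in colon in all 8 comparisons, but no other was called, and in the submucosal plexus it stood at 3.68 ± 1.38 CPM (SD, n = 5) against 4.66 ± 2.75 (n = 6; -0.28 ± 0.36, adjusted p = 0.763). Hoxa5 (chromosome 6, 52201754-52204587, minus strand), whose promoter is shown above, gave a similar layout with no call: 20.2 ± 8.10 CPM (SD, n = 5) against 77.1 ± 38.9 (n = 6) in the myenteric plexus (-1.93 ± 0.55, edgeR adjusted p = 0.0532). Hoxa7 went the other way in the submucosal plexus, at 16.1 ± 6.58 CPM (SD, n = 5) in colon against 3.75 ± 1.57 (n = 6; 2.08 ± 0.43, adjusted p = 0.00625). It was not called elsewhere. Of the 13 members in groups 1 to 4, 11 were tested and Hoxc4 alone was called. The median log2 fold change of these 11 lay between -1.78 and 0.18 over the 8 comparisons.

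Among these anterior genes, Hoxb2, Hoxb3 and Hoxb3os had counts in all libraries of both regions. Hoxb2 held a median of 11.52 CPM (1.65-32.0) over the 36 colon libraries and 14.2 (0.195-34.7) over the 39 small intestine libraries. The antisense RNA Hoxb3os held 18.4 CPM (0.708-33.8) and 20.4 (0.779-37.5), and its log2 fold changes between -0.41 and 0.33 were the narrowest of the anterior members. For both genes the ranges of the regions overlap. Hoxa4 had medians of 1.26 CPM in colon and 5.25 in small intestine. Hoxa2, a hindbrain patterning gene, had a lower mean in colon in all 8 comparisons (log2 fold changes of -4.80 to -0.13) without a call.

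The middle genes of HoxB and HoxD that were not called also differed in direction. Hoxb6 had medians of 8.24 CPM in colon and 16.4 in small intestine, and Hoxb7 of 6.99 and 10.1. Hoxb6 was fitted above 0 in 2 of 8 comparisons and Hoxb7 in 1. Hoxd8, in contrast, had medians of 11.6 CPM in colon and 3.82 in small intestine and was fitted above 0 in 7 of 8, with log2 fold changes of -0.27 to 2.41. The posterior HoxC genes that were tested were near the limit of detection: Hoxc9 had medians of 0.0876 and 0.154 CPM, and Hoxc10 was at 0 in 20 of 36 colon and 34 of 39 small intestine libraries. Hoxc10 was tested in 4 comparisons and fitted above 0 in each, with no call.

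Set out by paralogue number, the tested members of groups 9 to 13 had median log2 fold changes of 5.59 to 9.08 over the 8 comparisons, and all of those tested were fitted above 0 in the untreated, 2 h and knockout LPS comparisons (11 of 11 in each plexus, 8 of 8 at 2 h, 13 of 13), and 11 to 12 of 13 in the others. Groups 5 to 8 had medians of -2.22 to 1.01. Members tested through a high level in 1 region had to differ between regions, so these medians describe the genes and test nothing. Where a region was at 0, the fitted value that entered a median is not a measured ratio. By cluster the medians were -5.88 to -1.66 in HoxC and 3.03 to 7.56 in HoxD, with HoxA (-0.22 to 2.08) and HoxB (-0.89 to 0.67) between them. Across the tested genes, which are not independent replicates and share their libraries, Spearman's rho between paralogue number and log2 fold change was 0.543 to 0.758, with 0.718 to 0.914 within HoxA, 0.714 to 0.964 within HoxD and -0.699 to 0.793 within HoxB. HoxC had enough tested genes at 24 h alone, with rho of 0.486 to 0.657 over 6 genes.

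The summed CPM of all members had a median of 341 (224-630) over 36 colon libraries and 399 (29.6-723) over 39 small intestine libraries. In the untreated myenteric plexus the sums were 343 ± 54.0 (SD, n = 5) in colon and 343 ± 79.0 (n = 6) in small intestine, but in the submucosal plexus they ran from 231.7 to 320.3 in colon (mean 271, n = 5) and from 29.6 to 89.8 in small intestine (mean 59.6, n = 6), without overlap. The makeup of the sum differed too: groups 9 to 13 supplied a median of 43.0% (2.25-84.5%) of the sum in colon and 1.29% (0-19.3%) in small intestine. HoxC supplied 1.83% (0-21.5%, the highest in 2 h LPS replicate 2) in colon and 12.8% (4.19-34.2%) in small intestine. The highest paralogue group that reached 1 CPM and 4 counts was 13 in 30 of 36 colon libraries. In small intestine it was 9 in 19 of 39 libraries, 8 in 10 and 13 in 5. With a minimum of 10 CPM no small intestine library reached beyond group 8, while 15 colon libraries reached 13 and 17 reached 11.

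**Figure D4:**
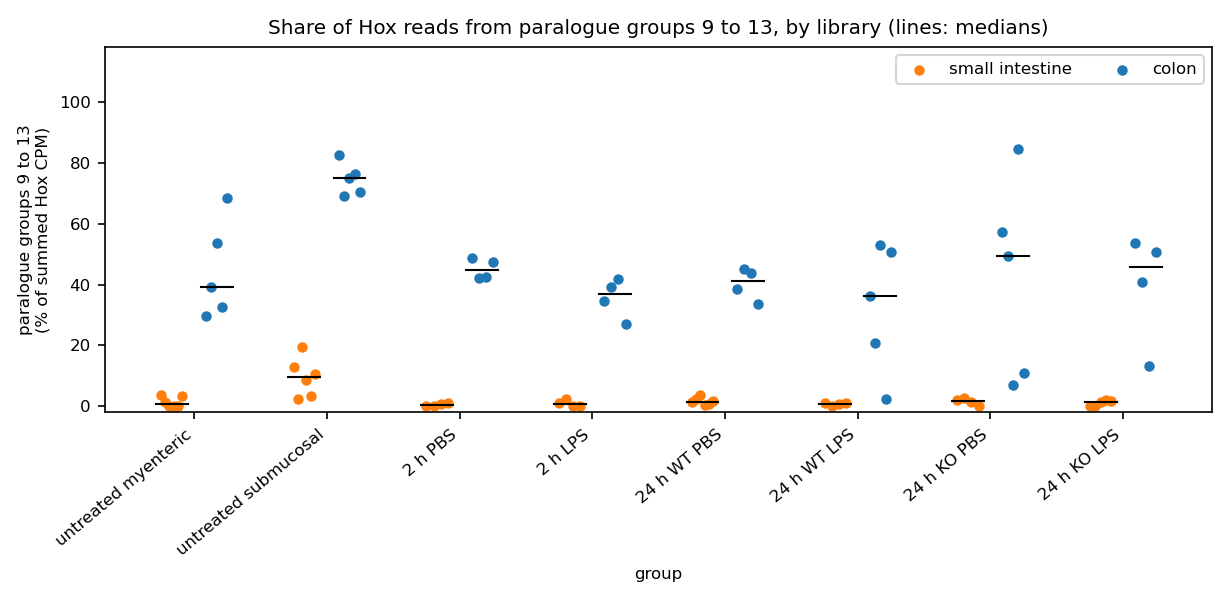
Share of the summed Hox CPM, in percent, that came from paralogue groups 9 to 13 in each library by group, with a line at each group median. Colon medians lie between 36.1% and 75.0%, and small intestine medians between 0.479% and 9.64%, the highest of these in the submucosal plexus.

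Hoxb13 (chromosome 11, 96194316-96197447, plus strand), the most posterior gene of HoxB and known from the epithelium of the distal colon and rectum, varied between colon libraries more than the HoxA genes did. It held 36.8-78.4 CPM in all 5 submucosal colon libraries, against at most 1.06 in small intestine (59.9 ± 15.7, SD, n = 5, against 0.202 ± 0.424, n = 6; log2 fold change 8.11 ± 1.85, edgeR adjusted p = 0.0117). In myenteric colon the libraries held 0.652, 0.907, 0, 0 and 114 CPM, and Hoxb13 was not called (4.75 ± 1.53, adjusted p = 0.0926). Without colon replicate 5 the log2 fold change was -1.38, and without small intestine replicate 1, at 4.63 CPM, it was 9.99. At 24 h it held 137 and 102 CPM in the LPS colon libraries of mice 3 and 8, 271 in the PBS knockout colon library of mouse 20, and at most 17.1 in the other colon libraries.

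Those libraries also carried markers of gut epithelium. The 9 colon libraries with a summed CPM of 7 epithelial markers of 2123 to 12305, a division made after the values were seen, held 36.8-271 CPM of Hoxb13 and 10.1-56.4 of Hoxb9. The other 27, at 0.967 to 538.5, held 0-17.1 and 0-7.27 CPM. Hoxa10 spanned 16.5-69.1 CPM in the 9 and 0-92.4 in the 27. In the 6 submucosal small intestine libraries the epithelial markers summed to 1683-8750 CPM with Hoxb13 at 0-1.06. Summed glial markers were 1140-6301 CPM in the 9 and 2511-15087 in the 27. The part of epithelium in the Hoxb13, Hoxa13 and Hoxd13 calls of the submucosal plexus was not tested.

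**Figure D5:**
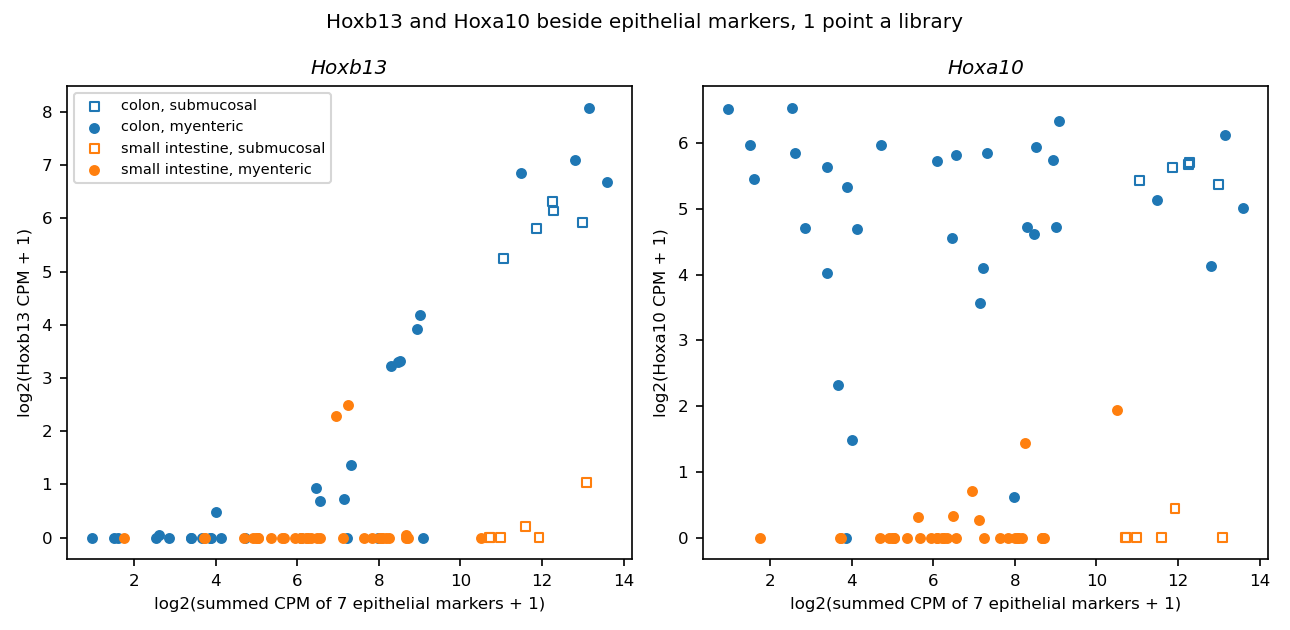
Log2(CPM + 1) of Hoxb13 and of Hoxa10 in each library against log2(summed CPM + 1) of 7 epithelial markers, by region. Colon libraries with high epithelial sums hold high Hoxb13, while Hoxa10 is present in most colon libraries over the whole range of epithelial sums.

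Between the plexuses of 1 region, the share of members called in either direction was near that of all genes, and most calls were lower in the submucosal plexus. In colon edgeR called 8 of 31 tested members lower there (25.8%, against 11.1% of all genes) and none higher (10.7% of all genes), and 21.8% of all genes were called in either direction. The number of members called in colon ran from 4 to 12 over fits that left out 1 library. In small intestine it called 14 of 31 lower (45.2%, against 21.2% of all genes) and 1 higher (22.3% of all genes), and 43.5% of all genes were called in either direction. DESeq2 called 12 and 16 members in either direction. Its share of all genes between plexuses is not given here, so these counts have no background beside them. Hoxb5 fell from 24.3 ± 5.02 CPM (SD, n = 5) in myenteric to 3.68 ± 1.38 (n = 5) in submucosal colon (-2.70 ± 0.38, edgeR adjusted p = 0.000128), and from 75.9 ± 23.4 (n = 6) to 4.66 ± 2.75 (n = 6) in small intestine (-4.05 ± 0.36, adjusted p = 1.52e-07). Hoxa5 fell from 20.2 ± 8.10 (SD, n = 5) to 3.11 ± 0.32 CPM (n = 5) in colon (-2.69 ± 0.60, adjusted p = 0.00337). Hoxd10 fell from 13.7 ± 2.39 (SD, n = 5) to 1.98 ± 0.78 CPM (n = 5) in colon (-2.77 ± 0.98, adjusted p = 0.0467). Posterior members were split in colon. Hoxd9 (2.97 CPM in submucosal and 21.7 in myenteric colon), Hoxd11 (2.46 and 4.99) and Hoxa11 (12.4 and 16.1) had lower submucosal means like Hoxd10, whereas others had higher ones without a call: Hoxb13 held 59.9 CPM in submucosal and 23.2 in myenteric colon, and Hoxb9 held 18.1 and 2.95 (edgeR adjusted p = 0.512 and 0.0833). Hoxa13 (8.07 and 3.41 CPM), Hoxd13 (6.24 and 1.76) and Hoxa10 (46.5 and 37.1) had higher submucosal means as well, and the members of groups 9 to 13 summed to 202.5 ± 31.7 CPM (SD, n = 5) in submucosal and 159.1 ± 77.9 (n = 5) in myenteric colon. The member called higher in submucosal small intestine was Hoxb9, at 3.62 against 0.354 CPM (3.14 ± 1.06, adjusted p = 0.0197), with overlap between the plexuses. Several cell types differed between the plexuses as well. Summed glial markers had medians of 7900 and 1911 CPM in myenteric and submucosal colon and 11018 and 1251 in small intestine. Summed immune markers went from 488 to 6921 CPM in colon and from 1431 to 20144 in small intestine, and epithelial markers from 86.7 to 4881 and from 36.0 to 2558. The part of these cells was not tested. With the mean of the neuron markers as a covariate 2 of the colon calls and none of the small intestine calls were made.

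Counted against all genes, the share of members called in either direction was above the background in each region comparison. In the untreated myenteric plexus 7 of 31 tested members were higher in colon (1.66% of all genes were) and 4 lower (1.53%). In the submucosal plexus 9 of 31 were higher (3.82%) and 2 lower (1.36%). After 2 h PBS 3 of 29 were higher (0.0839%) and none lower (0.137%), with 15 members (51.7%) at an unadjusted p under 0.05 in either direction in edgeR, against 10.6% of all genes. DESeq2 called 5 higher and 5 lower there, and 3.81% of all genes in either direction. After 2 h LPS 2 of 29 were higher (0.0305%) and none lower (0.0305%), again with 15 at an unadjusted p under 0.05 (10.5% of all genes), and DESeq2 called 6 and 3 (2.64% of all genes in either direction). At 24 h, with 36 members tested, 3 were higher and 1 lower in wild-type PBS (0.0939% and 0.047%), 1 and 1 in the LPS libraries labelled wild type (0.0336% and 0.228%), 3 and 2 in knockout PBS (0.0268% and 0.0537%), and 3 and 2 in knockout LPS (0.047% and 0.0268%).

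Fewer of these calls were made with marker levels or the animal in the model. Of the 43 calls, 20 were kept with the mean of smooth muscle and fibroblast markers as a covariate and 14 with that of the neuron markers. Over all genes the muscle and fibroblast covariate gave 36 calls in the myenteric plexus (449 without it) and 85 in the submucosal plexus (730). It gave 0 in both 2 h comparisons (29 with PBS and 8 with LPS without it). At 24 h it gave 17, 82, 9 and 9, against 21, 39, 12 and 11, in wild-type PBS, wild-type LPS, knockout PBS and knockout LPS. The neuron covariate left none of the 11 calls of the untreated myenteric plexus, where it gave 1 called gene in all, against 449 without it. It gave 448 called genes in the submucosal plexus, 0 and 2 at 2 h with PBS and LPS, and 12, 0, 0 and 1 at 24 h in the order above. At 24 h, 1 of 16 calls was kept with the animal as a block, in which the fitted log2 fold changes of the 16 kept their direction. Among mice numbered 11 and above 15 of 16 were kept. Over all genes the block gave 6, 19, 2 and 4 calls and mice numbered 11 and above gave 252, 23, 105 and 54, in the same order. Fits on only the groups compared gave no call among the members in the LPS libraries labelled wild type and in both knockout comparisons. They called 0 of all genes there. The 6 colon libraries of mice numbered up to 10 held 0-31.2 CPM of Hoxa10 and 803-8065 CPM of fibroblast markers, against 15.2-91.1 and 7968-25904 in the other 12. Mitochondrial genes took a median of 15.4% (4.24-26.0%) of counts in the 12 libraries of mice up to 10 and 4.57% (1.66-10.4%) in the other 25. Of the 24 h wild-type colon libraries, 3 of 5 with LPS and 0 of 4 with PBS came from mice up to 10, and the part of this division in the results was not tested beyond the fits named here.

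The difference between regions was compared between plexuses and treatments by interaction terms, and no member was called in any. For plexus, 1.19% of all genes were called, and 7 of 31 members (22.6%) had an unadjusted p under 0.05 in edgeR against 14.7% of all genes, the smallest adjusted p being 0.179 for Hoxb5 (difference of log2 fold changes 1.36 ± 0.49). For LPS, 0% of all genes were called. At an unadjusted p under 0.05 in edgeR stood 0 of 29 members at 2 h (3.45% of all genes) and 2 of 36 in each genotype at 24 h (7.56% of all genes with the wild-type label and 4.13% in the knockout). DESeq2 called 0 members in each of the 4.

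LPS itself gave no call among the members in any of the 6 comparisons, at 2 h or 24 h. In colon, 5 of 29 members (17.2%) had an unadjusted p under 0.05 in edgeR at 2 h, against 7.53% of all genes. At 24 h it was 1 of 36 (2.78%, against 24.8% of all genes) with the wild-type label and 4 of 36 (11.1%, against 12.4%) in the knockout. In small intestine it was 1 of 29, 0 of 36 and 1 of 36 members, against 681 of 13107, 3229 of 14903 and 1709 of 14903 genes. DESeq2 called 1 in 2 h colon, 1 in 24 h knockout colon and 0 in the other 4. Over all genes edgeR called 0.778% in 2 h colon and 1.1% in 2 h small intestine. At 24 h it called 7.96% and 7.17% in wild-type colon and small intestine, and 0.718% in each region of the knockout. In 2 h colon Hoxb6, a middle HoxB gene, held 13.3 ± 7.57 CPM (SD, n = 4) after LPS and 2.30 ± 2.97 (n = 4) after PBS, a log2 difference of 2.53 ± 0.94 that missed the threshold (edgeR adjusted p = 0.472). In 24 h knockout colon Hoxb5 held 64.3 ± 34.0 CPM (SD, n = 4) after LPS and 32.1 ± 14.4 (n = 5) after PBS (1.00 ± 0.43, edgeR adjusted p = 0.315).

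No member was called in the 4 comparisons of knockout with wild type. In the LPS groups, 4 libraries labelled wild type had 3 or fewer Gpr37 counts. They were the colon libraries of mice 3, 5 and 8 and the small intestine library of mouse 3. In edgeR 2 members in PBS colon, 2 in PBS small intestine and 0 in both LPS comparisons had an unadjusted p under 0.05 (4.22%, 1.72%, 16.4% and 7.63% of all genes), and DESeq2 called 0, 0, 0 and 1. Over all genes edgeR called 0%, 0%, 0.429% and 0.0134% in PBS colon, PBS small intestine, LPS colon and LPS small intestine. Hoxd3 in PBS colon, at 1.57 ± 1.35 CPM (SD, n = 5) in the knockout and 4.90 ± 1.40 (n = 4) in the wild type, was 1 of these members (-1.65 ± 0.77, adjusted p = 1.00).

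Lists of other genes that act with or on the Hox clusters were followed in the same region comparisons. Over all genes, edgeR called 1.14% of the tests of these 8 comparisons, 11.6% had an unadjusted p under 0.05 in edgeR, and DESeq2 called 3.78%. Of 9 cofactors of the TALE class (Pbx, Meis and relatives, which bind DNA with Hox proteins), none was called in the 72 tests over the 8 comparisons (5 at an unadjusted p under 0.05 in edgeR, 2 called by DESeq2). The same held for 19 Polycomb and Trithorax genes, which keep Hox clusters silent or active, in 152 tests (11 and 2). Among 14 genes of the Cdx and retinoic acid inputs to the clusters, 5 of 86 tests gave a call (20 at an unadjusted p under 0.05 in edgeR, 10 called by DESeq2). Aldh1a1, an enzyme that makes retinoic acid, held 293 ± 47.9 CPM (SD, n = 5) in untreated myenteric colon and 744 ± 245 (n = 6) in small intestine (-1.35 ± 0.30, edgeR adjusted p = 0.0181). Cyp26b1, which degrades retinoic acid, held 2.78 against 41.7 CPM there (-3.89 ± 0.92, adjusted p = 0.0236). Aldh1a2, also a retinoic acid enzyme, was lower in 24 h PBS colon of the wild type (10.9 against 126 CPM, -3.52 ± 0.76, adjusted p = 0.0409) and of the knockout (12.1 against 135 CPM, -3.49 ± 0.72, adjusted p = 0.0453). The receptor gene Rarg was higher in submucosal colon (24.3 against 6.65 CPM, 1.87 ± 0.38, adjusted p = 0.00577).

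Among 29 other transcription factors of gut regions, 6 of 154 tests gave a call (42 at an unadjusted p under 0.05 in edgeR, 22 called by DESeq2). Pitx1, a homeodomain factor known from the hindlimb, was higher in colon in the untreated myenteric plexus (5.83 against 0.0257 CPM, 6.77 ± 0.74, edgeR adjusted p = 3.9e-05) and in the submucosal plexus (51.8 against 6.38 CPM, 3.03 ± 0.49, adjusted p = 0.000795). DESeq2 also called it in 4 further comparisons, both at 2 h, the LPS libraries labelled wild type and knockout PBS. Gata4 and Gata5, known from the epithelium of the small intestine, held 19.8 and 12.0 CPM in submucosal small intestine and 0 in colon (adjusted p = 0.00111 and 0.0430). Osr1 was higher in submucosal colon (19.1 against 3.74 CPM, adjusted p = 0.0308), and Tlx2, a factor of enteric neurons, was lower in myenteric colon (1.99 against 25.9 CPM, -3.69 ± 0.93, adjusted p = 0.0331). Of 17 genes that flank the clusters, 1 of 90 tests gave a call (12 at an unadjusted p under 0.05 in edgeR, 4 called by DESeq2), for Ttll6 in the submucosal plexus (3.71 CPM in colon, 0 in small intestine, adjusted p = 0.00838). The other noncoding RNAs of the clusters gave none in 40 tests (9 at an unadjusted p under 0.05 in edgeR, 2 called by DESeq2).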

How the data were processed

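The authors deposited raw read counts per gene symbol as 2 tables, 1 for the untreated and 2 h libraries and 1 for the 24 h libraries. Reads were processed with Trim Galore 0.4.4, STAR 2.5.3 and DESeq2 on GRCm38, per the submitters' processing notes. The counter, the annotation and the use of strand are not given in the sources used here. Smart-seq2 carries no molecular identifiers, so intervals and floors cover counting error only.

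From the deposited counts, each experiment was fitted in its own table with edgeR 4.0.16 in R 4.3.3 (filterByExpr, TMM, glmQLFit, glmQLFTest, two-sided). All groups of an experiment entered 1 model, which left 14090, 13107 and 14903 genes for the untreated, 2 h and 24 h libraries. A gene was called at a Benjamini-Hochberg adjusted p under 0.05 over all genes tested. In all, 24 contrasts were tested. Fold changes are the log2 values of the edgeR fit at its default prior count. Each standard error was derived as the size of the fold change over the square root of the test's F. A prior count of 2 was used for log2 CPM in the marker means and in the check on pairing. Where a group was at 0, a fitted value is not a measured ratio. A group at 0 gives a lower bound against 3 counts over the group, and a group of 1 to 3 counts gives a pooled ratio with a 95% exact interval. The fits were checked on simulated counts. Python 3.11.15 and DESeq2 1.42.0 were also used. Coordinates are those of GENCODE vM21.

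The members and the gene lists were chosen with earlier results of these data known. Values per library are given for the 6 members called most often and for members called lower in colon, and, chosen after their values were seen, for Hoxd10, Hoxd11 and Hoxb13 in the untreated libraries. Other genes of the lists are named where called. The level of 1 member, which was not called, and the promoter of the reporter are not reported here.

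At 24 h, samples of the 2 regions with the same mouse number come from the same animal, per the labels, and their deviations from the group means had a mean correlation of 0.0914 to 0.139, against -0.0325 to -0.018 for other pairs. Apart from these labels, nothing says that replicates are separate animals, and p-values then measure the spread between these samples.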

Additional observations from a re-analysis of the deposited data

Results flagged for a closer look

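Among the 6 members with values per library, 64 combinations of member and group (4 to 6 libraries) were tested for 1 library standing apart. By Dixon's 95% value 15 held such a library. For evenly spread values chance gives about 1 in 20, but in 7 of the 15 every other library was at 0, where any count stands apart and that rate does not hold. In untreated small intestine, myenteric replicate 2 held 0.980 CPM of Hoxa11os, 1.72 of Hoxa10 and 1.72 of Hoxa9, with the other libraries at 0, and submucosal replicate 3 held 2.52 CPM of Hoxa9 with the next at 0.264. In untreated myenteric colon, replicate 3 held 92.4 CPM of Hoxa10 with the next at 34.3.

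At 2 h, PBS colon replicate 3 held 25.3 CPM of Hoxa10, below 60.7 in the next, and LPS colon replicate 3 held 2.05 CPM of Hoxc4 with the others at 0. In 24 h wild-type PBS colon, mouse 24 held 25.4 CPM of Hoxa10, below 52.0 in the next, and mouse 22 held 0.141 CPM of Hoxc8 with the others at 0. In 24 h wild-type PBS small intestine, mouse 14 held 2.86 CPM of Hoxa10 (the others at 0) and 8.13 of Hoxc4 (next 18.7), and mouse 23 held 0.444 CPM of Hoxa11 (next 0.136) and 1.44 of Hoxa9 (the others at 0). The LPS colon library of mouse 5, labelled wild type, held 0.910 CPM of Hoxa11 with the next at 8.25. The PBS knockout colon library of mouse 20 held 25.7 CPM of Hoxa9 with the next at 4.90.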

How the results depend on the processing

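Of 300 counts of called members under alternatives other than leaving out 1 library, 225 stayed within 1.5 times of the value reported and 75 did not; the cause was not tested unless named. In the order higher and lower in colon, the reported counts were 7 and 4 (myenteric), 9 and 2 (submucosal), 3 and 0 (2 h PBS), 2 and 0 (2 h LPS), 3 and 1 (wild-type PBS), 1 and 1 (wild-type LPS), 3 and 2 (knockout PBS) and 3 and 2 (knockout LPS). With the smooth muscle and fibroblast mean as a covariate the counts that moved were 3 and 1 myenteric, 5 and 1 submucosal, 0 higher in both 2 h comparisons, 1 higher in wild-type PBS, 3 and 2 in wild-type LPS, and 1 and 1 in knockout LPS. With the neuron mean they were 0 and 0 myenteric, 0 higher at 2 h PBS and 1 at 2 h LPS, 1 higher in wild-type PBS, 0 and 0 in wild-type LPS and knockout PBS, and 1 and 0 in knockout LPS. DESeq2 called 5 and 5 at 2 h PBS, 6 and 3 at 2 h LPS, 5 and 2 in wild-type PBS, 6 and 3 in wild-type LPS, 6 higher in knockout PBS and 7 higher in knockout LPS. Of all genes it called 3.81%, 2.64%, 1.23%, 4.48%, 1.05% and 2.17% in that order, in either direction. Fits on only the groups compared, which hold fewer samples, gave 1 lower at 2 h PBS, 0 higher at 2 h LPS, 6 and 3 in wild-type PBS, and 0 and 0 in wild-type LPS and both knockout comparisons. Over all genes they gave 31 calls at 2 h PBS and 313 in wild-type PBS. They gave 0 at 2 h LPS, in wild-type LPS and in both knockout comparisons. No filter gave 1 lower at 2 h PBS. Mice 11 and above gave 6 and 2 in wild-type PBS, 2 higher in wild-type LPS, 7 and 4 in knockout PBS, and 5 and 1 in knockout LPS. Over all genes they gave 252, 23, 105 and 54 calls in that order, against 21, 39, 12 and 11 in the reported fits. In wild-type LPS the mouse number as a covariate gave 3 and 3, with 113 called genes in all. Leaving out both libraries of mouse 3 gave 0 and 0 there, with 5 called genes in all.

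With the animal as a replicate block the counts that moved were 1 lower at 2 h PBS, 0 higher at 2 h LPS, 0 and 0 in wild-type PBS and both knockout comparisons, and 0 lower in wild-type LPS. Over all genes that block gave 106 and 29 calls at 2 h PBS and LPS, against 29 and 8 in the reported fits. The block moved the 8 plexus calls in colon to 5 and changed no other count by over 1.5 times. In the untreated and 2 h libraries the samples share only a number: same-numbered samples had a mean correlation of 0.0579 to 0.184 between regions and 0.0213 to 0.0979 between plexuses, and 9 of 10 myenteric libraries correlated best with their own number, against 6 of 10 submucosal and 6 of 8 in each 2 h treatment. No paired analysis was possible because no mouse received both treatments, for LPS at 24 h.

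The 8 plexus calls in colon became 5 with no filter or with sex as a covariate, 4 with the smooth muscle and fibroblast mean and 2 with the neuron mean, and the 15 in small intestine 9 and 0 with the last pair. The LPS and genotype counts of 0 became 1 with DESeq2 (2 h colon, knockout colon, genotype in LPS small intestine), with the smooth muscle and fibroblast mean (wild-type colon) and with mice 11 and above (wild-type small intestine). Leaving out 1 library gave 0 to 3 higher and 0 to 1 lower at 2 h PBS, 0 to 2 and 0 to 1 at 2 h LPS, 1 to 3 higher in wild-type PBS, 1 to 3 and 1 to 3 in wild-type LPS, 1 to 3 and 1 to 2 in knockout PBS, 1 to 3 and 0 to 2 in knockout LPS, 4 to 12 for plexus in colon, and 0 to 1 for region by plexus and LPS in 2 h colon. Of 337 such counts 283 stayed within 1.5 times. Directions reversed for Hoxb5 in the submucosal plexus (0.10 with the smooth muscle and fibroblast mean), and at 2 h PBS (0.51 with the neuron mean, which took the 2 h LPS value to 0.000), for Hoxc4 at 2 h PBS (0.24) and between plexuses in small intestine (0.64) with the neuron mean, and for Hoxb13 in the myenteric plexus (-0.94, -4.37 and -1.38 with the muscle and fibroblast mean, with the neuron mean and without colon replicate 5; -1.38 to 9.99 over fits that left out 1 library). A member at 0 was not detectable below 0.0933 to 1.46 CPM.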
